A study of Mus musculus with 5 samples.

Results

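Solute carriers are membrane proteins that move amino acids, sugars, nucleosides, metals, ions and metabolites across the cell surface and the membranes of lysosomes, mitochondria and the Golgi. They were followed here at the mRNA level in the mouse macrophage-like cell line RAW264.7 given LPS with or without arctigenin. The members were taken by name. Of 370 gene symbols that begin with Slc and a digit, 9 were set aside (Slc2a1, Slc7a1, Slc7a2, Slc7a11, Slc11a1, Slc11a2, Slc17a5, Slc25a1 and Slc40a1), and of the 361 left, those with at least 200 estimated counts summed over the 5 libraries were kept. This gave 167 genes of the 21878 gene symbols in the table, and 194 genes fell below the minimum. All 167 passed the filter on low counts and were tested. The members just above the minimum were Slc25a35 with 208.4 counts and Slc26a9 with 212.3 counts, and the genes just below it were Slc6a4 with 161.2 counts and Slc25a53 with 157.0 counts.

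The libraries came from cells given LPS at 0.5 mg/mL together with 1 μM arctigenin, a plant lignan (2 libraries), from cells given the same LPS dose alone (2 libraries), and from cells labelled as given vector (1 library). LPS is a component of the outer membrane of Gram-negative bacteria and is sensed by Toll-like receptor 4. All groups are the same cell line, so one tumour-derived clone stands for macrophages. The labels do not give the length of treatment, what the vector treatment held, whether the LPS libraries received the solvent of arctigenin, or whether the libraries of a group came from separate cultures. The p-values therefore measure the spread between these libraries only, which may be technical. Total estimated counts were 19956044 and 19836203 with LPS and arctigenin, 20783939 and 20496183 with LPS, and 21578355 with vector. All 8 macrophage markers looked up, among them Cd68 and Csf1r, had between 1460 and 109406 counts in every library. Of 12 markers of T cells, B cells, epithelium, fibroblasts, endothelium and muscle, 3 (Cd3e, Cd3g and Epcam) had 0 counts in every library, and the highest count of any was 79. Their summed level was 4.52 and 4.06 CPM (TMM-normalised read counts scaled to a common library size) with LPS and arctigenin, 6.13 and 5.42 CPM with LPS, and 1.63 CPM with vector. Dcn had 8 and 9 counts with LPS and arctigenin, 79 and 67 with LPS and 8 with vector, and Pecam1 had 48 and 47, 20 and 16, and 5 counts in the same groups. The part of these markers in the results was not tested. In such bulk samples, fewer cells of a type and less RNA per cell cannot be told apart.

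Solute carriers are grouped into families by sequence, and a family often shares a substrate. Activated macrophages are known for a changed metabolism, in which uptake of glucose, glutamine and other amino acids, export of lactate and handling of iron, zinc and copper are all regulated. Lysosomal carriers return amino acids, nucleosides and sugars from digested material to the cytosol, and mitochondrial carriers of the Slc25 family join the metabolism of the cytosol to that of the mitochondrion. Expression is given below as CPM normalised by TMM, a scaling that corrects for differences in library composition, and each value stands for 1 library. Tests are those of edgeR's quasi-likelihood fit, with p-values adjusted by Benjamini-Hochberg over 11575 genes, and a gene is said to be called, or to have risen or fallen, only where that value was under 0.05. Levels of different genes were compared as CPM per kilobase of the longest annotated coding transcript, and their order differed between groups. The mitochondrial ADP/ATP carrier Slc25a5 was highest with LPS and arctigenin at 384.5 CPM per kilobase, against 284.4 with LPS and 314.1 with vector. The lysosomal histidine and peptide transporter Slc15a3 was highest with LPS at 379.6 CPM per kilobase, and had 272.2 with LPS and arctigenin and 65.6 with vector. The amino acid transporter heavy chain Slc3a2 had 148.5 CPM per kilobase with LPS and arctigenin, 154.5 with LPS and 195.3 with vector. In vector it was followed by Slc38a2, a carrier of small neutral amino acids, at 193.2 CPM per kilobase, against 65.1 with LPS.

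With LPS and arctigenin, far more solute carrier genes fell than rose relative to LPS alone. Of the 167 members, 71 fell and 13 rose, and 83 were not called (44.8% of all genes tested were called in either direction). The share that fell was 42.5%, against 22.0% of all genes tested, and the share that rose was 7.78%, against 22.8% of all genes tested. These are unlike sets, since members had to reach 200 summed counts and the genes tested only a lower minimum. The part of this difference in these shares, and in those of the classes below, was not tested. The median log2 fold change of the members was -0.23, and that of all genes tested was -0.0028. Falls of at least 2-fold were called for 16 members (4.27% of all genes tested fell as far), and rises of at least 2-fold for 0 members (3.54% of all genes tested). The summed level of the members was 10505 and 10694 CPM with LPS and arctigenin, 12553 and 12172 CPM with LPS, and 11350 CPM with vector. The libraries with arctigenin had the lowest sums and the LPS libraries the highest. As an unscaled share of the library, the members took 0.989% and 1.02% of counts with LPS and arctigenin, 1.23% and 1.18% with LPS, and 1.32% with vector, so the order of LPS and vector depends on the TMM scaling, while the libraries with arctigenin were lowest on both scales. With curated transcripts only, 29 members were called lower, when the share of all genes called lower was itself 10.6%.

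LPS alone changed the carriers in both directions relative to vector. Of the 167 members, 52 rose and 38 fell, when 52.0% of all genes tested were called in either direction. The 31.1% that rose stand beside 27.1% of all genes tested, and the 22.8% that fell beside 24.9%, so these shares were near those of all genes. Rises of at least 2-fold were called for 17 members (9.14% of all genes tested) and falls of at least 2-fold for 7 members (7.23% of all genes tested). The median log2 fold change was 0.01 over the members and -0.01 over all genes tested. The LPS libraries enter both of these comparisons, so their values are given side by side and no overlap between them is tested. There was 1 vector library, so each comparison with vector takes its spread from the other groups. With curated transcripts only, 30 members were called higher and 18 lower in LPS against vector, when 17.3% and 12.0% of all genes tested were called in these directions.

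**Figure D1:**
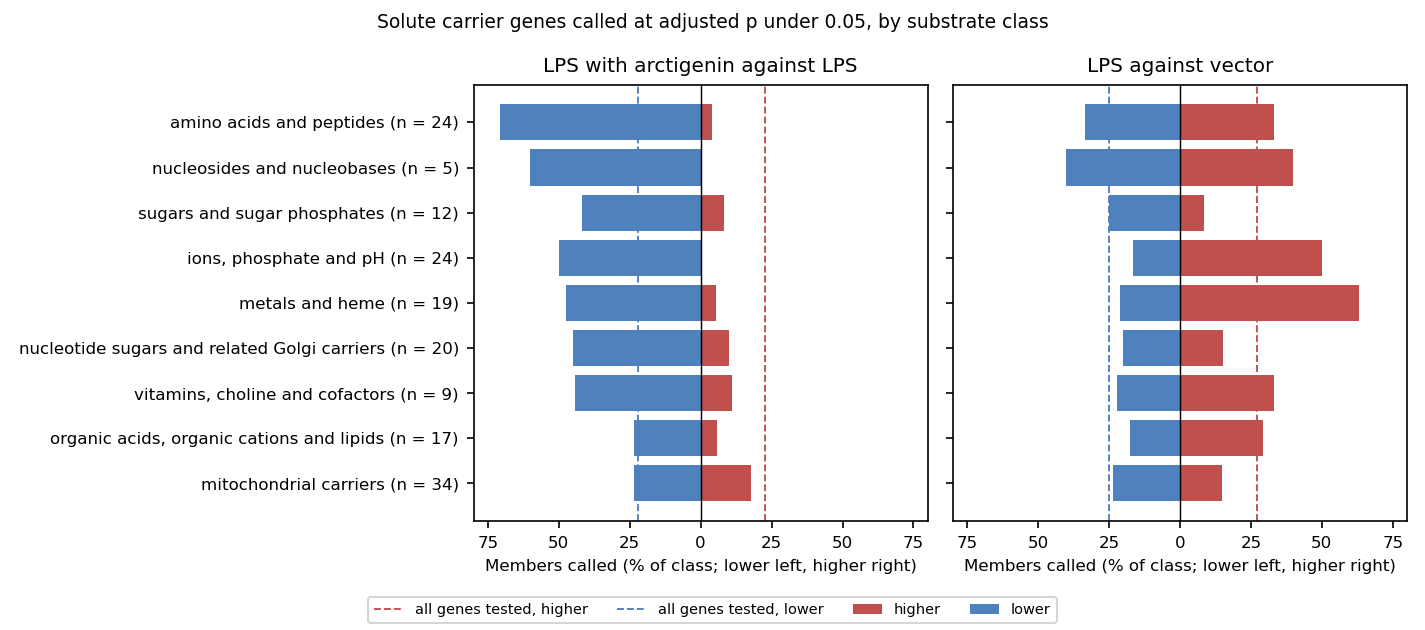
Share of each substrate class called lower (bars to the left) or higher (bars to the right), in percent of the class, for LPS with arctigenin against LPS (left panel) and LPS against vector (right panel). Dashed lines mark the share of all 11575 genes tested. In the left panel 17 of 24 amino acid and peptide carriers were lower and 1 was higher, while mitochondrial carriers (8 lower and 6 higher of 34) lay closer to the lines. In the right panel the metal and heme carriers had 12 of 19 higher.

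Carriers of amino acids and peptides were the class with the highest share of falls with arctigenin. Of 24 members, 17 fell (70.8%, against 22.0% of all genes tested) and 1 rose (4.17%, against 22.8%) relative to LPS. The median log2 fold change was -0.52. Their summed level was 2730 and 2941 CPM with LPS and arctigenin, against 3893 and 3755 CPM with LPS, and 3891 CPM with vector. LPS alone raised 8 of the 24 (33.3%, against 27.1% of all genes tested) and lowered 8 (33.3%, against 24.9%) relative to vector, with a median of -0.07. The plot of amino acid carriers shows this spread in both directions under LPS and the shift to the left with arctigenin.

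Among carriers of the cell surface, the sodium-coupled carriers of neutral amino acids Slc1a4, Slc38a2 and Slc1a5 fell in both comparisons. Slc1a4, a carrier of alanine, serine and cysteine, had 7.34 and 9.07 CPM with LPS and arctigenin, 19.6 and 18.0 CPM with LPS and 86.9 CPM with vector. The groups did not overlap, and vector stood far above the others. It fell 2.29-fold in LPS with arctigenin relative to LPS (log2 fold change -1.19, SE 0.13, edgeR adjusted p = 6.36e-05) and 4.62-fold in LPS relative to vector (-2.21, SE 0.13, adjusted p = 4.37e-07). Slc38a2, a carrier of small neutral amino acids that cells make more of when amino acids are scarce, had 149.8 and 187 CPM with LPS and arctigenin, 316 and 286 CPM with LPS and 894 CPM with vector. Again each group lay apart, in the same order, and the falls were 1.79-fold with arctigenin relative to LPS (edgeR adjusted p = 0.000373) and 2.97-fold with LPS relative to vector (adjusted p = 1.43e-05). The glutamine carrier Slc1a5 had 106 and 112 CPM with LPS and arctigenin, 143 and 132 CPM with LPS and 256 CPM with vector, and fell 1.26-fold and 1.86-fold in these comparisons (edgeR adjusted p = 0.00239 and 7.25e-06). Slc38a1, another glutamine carrier, differed in that LPS and vector were not told apart. It had 179 and 184 CPM with LPS and arctigenin, 294 and 270.3 CPM with LPS and 290.5 CPM with vector, and fell 1.55-fold with arctigenin (edgeR adjusted p = 4.2e-05, against 0.665 for LPS relative to vector).

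The exchanger made of the light chain Slc7a5 and the heavy chain Slc3a2, which takes up leucine and other large neutral amino acids, did not show a call with arctigenin. Slc7a5 had 136 and 149.8 CPM with LPS and arctigenin, 162 and 142 CPM with LPS and 257 CPM with vector, and Slc3a2 had 391 and 445, 424 and 445 and 549 CPM in the same groups. The libraries with arctigenin and with LPS alone overlapped for both genes (edgeR adjusted p = 0.39 and 0.557), and vector lay above all of them. In LPS relative to vector, Slc7a5 fell 1.69-fold (adjusted p = 8.89e-05) and Slc3a2 fell 1.26-fold (adjusted p = 0.00883, or 0.08 without LPS replicate 1 and 0.069 with curated transcripts only). Another light chain, Slc7a8, went the other way with LPS. It had 186 and 171 CPM with LPS and arctigenin, 180.1 and 169 CPM with LPS and 72.7 CPM with vector, a rise of 2.40-fold in LPS relative to vector (edgeR adjusted p = 1.77e-06) and no call with arctigenin relative to LPS (adjusted p = 0.732). The light chain Slc7a7, which exports cationic amino acids, rose 1.51-fold with LPS relative to vector and fell 1.99-fold with arctigenin relative to LPS (edgeR adjusted p = 0.00227 and 4.3e-05). Of the Slc6 family, the creatine carrier Slc6a8, the glycine carrier Slc6a9, the betaine carrier Slc6a12 and the taurine carrier Slc6a6 fell with arctigenin by 1.86-fold, 2.00-fold, 1.91-fold and 1.23-fold.

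**Figure D2:**
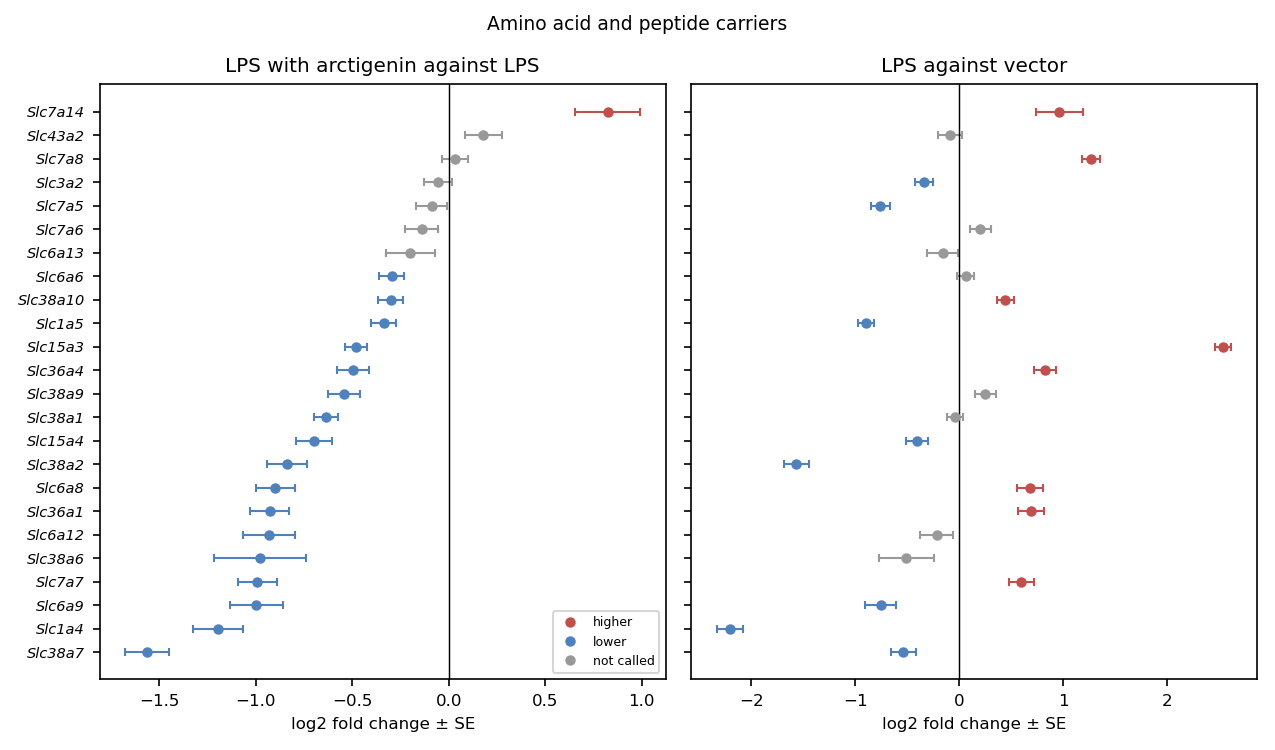
Log2 fold change with its standard error (horizontal bars) for the 24 amino acid and peptide carriers, for LPS with arctigenin against LPS (left panel) and LPS against vector (right panel). Red points were called higher, blue points lower and grey points were not called. In the left panel 17 carriers lie to the left as called falls, Slc38a7 at -1.56 farthest, and Slc7a14 at 0.82 is the called rise. In the right panel Slc15a3 at 2.53 and Slc1a4 at -2.21 stand at the ends.

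Several amino acid carriers work at the lysosome. Slc15a3 exports histidine and small peptides from it, and its mRNA was among the largest rises with LPS. The gene spans chromosome 19, 10914217 to 10933852 on the plus strand of build mm9. It had 644 and 632 CPM with LPS and arctigenin, 887 and 893 CPM with LPS and 154 CPM with vector. The LPS libraries were highest, those with arctigenin lay between, and no groups overlapped. It rose 5.79-fold in LPS relative to vector (log2 fold change 2.53, SE 0.08, edgeR adjusted p = 1.22e-08) and fell 1.40-fold with arctigenin relative to LPS (-0.48, SE 0.06, adjusted p = 0.000114). Its relative Slc15a4, which carries the same kind of substrates, did not share the rise. Slc15a4 had 24.7 and 26.7 CPM with LPS and arctigenin, 41.6 and 41.9 CPM with LPS and 55.4 CPM with vector, and fell in both comparisons, 1.62-fold with arctigenin (edgeR adjusted p = 0.000222) and 1.33-fold with LPS (adjusted p = 0.00862). Both calls of Slc15a4 were lost with curated transcripts only (log2 fold change -0.36, SE 0.23, edgeR adjusted p = 0.318 with arctigenin, and -0.60, SE 0.28, adjusted p = 0.17 with LPS), and that of LPS relative to vector also without LPS replicate 1 or 2 (0.0573 and 0.051).

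Slc38a7, which exports glutamine and asparagine from lysosomes, had the largest fall of the class with arctigenin. It had 28.1 and 36.8 CPM with LPS and arctigenin, 96.5 and 95.0 CPM with LPS and 139 CPM with vector. The groups did not overlap and the libraries with arctigenin were lowest. The fall was 2.95-fold relative to LPS (log2 fold change -1.56, SE 0.11, edgeR adjusted p = 1.1e-05), and with curated transcripts only it missed the threshold (adjusted p = 0.0746). LPS relative to vector gave a smaller fall of 1.45-fold (edgeR adjusted p = 0.00566). Slc36a1, a proton-coupled exporter of small amino acids from lysosomes, had 28.7 and 32.3 CPM with LPS and arctigenin, 61.3 and 54.8 CPM with LPS and 36.0 CPM with vector. LPS was highest, and the libraries with arctigenin lay just below the vector library. It rose 1.61-fold with LPS (edgeR adjusted p = 0.000949) and fell 1.90-fold with arctigenin (adjusted p = 6.26e-05). Slc38a9, the lysosomal arginine sensor upstream of the kinase complex mTORC1, had 37.4 and 37.9 CPM with LPS and arctigenin, 54.6 and 55.2 CPM with LPS and 46.2 CPM with vector, and fell 1.46-fold with arctigenin (edgeR adjusted p = 0.000522). The related Slc36a4 rose 1.77-fold with LPS and fell 1.41-fold with arctigenin. The single amino acid carrier that rose with arctigenin was Slc7a14, with 12.7 and 15.1 CPM with LPS and arctigenin, 8.04 and 7.63 CPM with LPS and 4.02 CPM with vector. It was 1.77-fold higher with arctigenin than with LPS (edgeR adjusted p = 0.00289), a call lost with curated transcripts only (adjusted p = 0.0875).

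The promoters of 128 of the 167 members were found in a RefSeq table of mouse build GRCm38.p6, and the 250 bases before each start were searched on both strands for TCACGTG, the core of the element bound by TFEB and related factors at many lysosomal genes. It was present for 14 members (10.9%), against 3.58% of the 27025 genes in the table and 3.13% of its 32851 promoter windows. Of these 14 members, 6 fell, 1 rose and 7 were not called in LPS with arctigenin relative to LPS. Over all 167 members 42.5% fell and 7.78% rose, against 22.0% and 22.8% of all genes tested. In LPS relative to vector, 4 of the 14 rose, 4 fell and 6 were not called. Over all members 31.1% rose and 22.8% fell, against 27.1% and 24.9% of all genes tested. Whether a match goes with a fall was not tested. The windows of 3 that fell with arctigenin and of the 1 that rose are printed here to let them be compared, 5′ to 3′ on the gene's strand and ending at the base before the start, with the match in capitals (TCACGTG, or CACGTGA where it lies on the other strand). Slc38a7 is at chr8:95853492-95853741 on the minus strand, Slc36a1 at chr11:55204090-55204339 on the plus strand, Slc25a33, a mitochondrial carrier of pyrimidine nucleotides, at chr4:149774268-149774517 on the minus strand, and Slc7a14 at chr3:31310320-31310569 on the minus strand.
Slc38a7: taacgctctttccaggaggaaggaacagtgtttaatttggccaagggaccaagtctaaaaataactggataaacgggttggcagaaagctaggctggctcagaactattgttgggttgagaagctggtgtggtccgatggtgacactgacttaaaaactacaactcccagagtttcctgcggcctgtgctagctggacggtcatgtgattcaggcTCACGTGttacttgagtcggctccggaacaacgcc
Slc36a1: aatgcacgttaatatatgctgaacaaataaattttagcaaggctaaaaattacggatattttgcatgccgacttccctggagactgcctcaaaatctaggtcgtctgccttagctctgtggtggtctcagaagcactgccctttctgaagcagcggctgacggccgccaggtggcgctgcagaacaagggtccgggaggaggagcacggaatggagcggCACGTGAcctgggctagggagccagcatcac
Slc25a33: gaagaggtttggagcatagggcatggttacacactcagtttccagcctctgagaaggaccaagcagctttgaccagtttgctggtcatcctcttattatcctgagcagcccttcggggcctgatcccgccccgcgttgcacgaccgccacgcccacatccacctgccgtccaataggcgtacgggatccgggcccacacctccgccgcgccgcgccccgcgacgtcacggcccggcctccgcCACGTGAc
Slc7a14: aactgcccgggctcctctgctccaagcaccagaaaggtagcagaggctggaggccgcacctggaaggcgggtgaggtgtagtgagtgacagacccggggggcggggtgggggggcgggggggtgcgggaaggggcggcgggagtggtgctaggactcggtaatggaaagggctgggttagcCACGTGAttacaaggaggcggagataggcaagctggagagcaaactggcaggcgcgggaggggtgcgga
The match begins 35 bases before the start in Slc38a7, 31 in Slc36a1, 8 in Slc25a33 and 69 in Slc7a14. A match is a sequence and not a measured binding site, and the shares were not tested against each other. They also compare unlike sets, since members had to reach a count minimum in these cells and the 27025 genes did not. A gene counted when any of its windows matched, and the 128 members had 177 windows.

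Other motifs were searched in the same windows. The amino acid response element TGATGNAA, bound by ATF4, was present for 2.34% of the members and 3.91% of all genes, the metal response element TGCNCNC for 53.9% and 47.2%, and the antioxidant response element TGACNNNGC for 21.1% and 11.5%. The AP-1 letters TGANTCA were present for 6.25% of the members and 7.82% of all genes, and the EGR letters GCGTGGGCG for 3.12% and 0.622%.

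Nucleoside and nucleobase carriers numbered 5 members, of which 3 fell and 0 rose with arctigenin relative to LPS (22.0% and 22.8% of all genes tested). Relative to vector, LPS raised 2 and lowered 2 (27.1% and 24.9% of all genes tested). Slc28a2, a sodium-coupled importer of purine nucleosides and uridine (build mm9, chromosome 2, 122251126 to 122286873, plus strand), had 10.9 and 10.0 CPM with LPS and arctigenin, 40.5 and 44.8 CPM with LPS and 4.74 CPM with vector. The LPS libraries stood far above the rest, and those with arctigenin lay above vector. It rose 8.98-fold in LPS relative to vector (log2 fold change 3.17, SE 0.17, edgeR adjusted p = 2.68e-07) and fell 4.07-fold with arctigenin relative to LPS (-2.03, SE 0.12, adjusted p = 2.02e-06). A near-identical copy, Gm14085, had 2.61 and 3.48 CPM with LPS and arctigenin, 10.7 and 13.2 CPM with LPS and 0.199 CPM with vector, so reads of the pair may have been divided between them and each gene's value is uncertain. With curated transcripts only, both calls of Slc28a2 missed the threshold (edgeR adjusted p = 0.1 and 0.0835), with standard errors of 2.91 and 1.78 on the log2 scale.

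The equilibrative carriers of nucleosides behaved differently from each other under LPS. Slc29a3, which lets nucleosides leave lysosomes, had 44.9 and 49.5 CPM with LPS and arctigenin, 52.8 and 56.1 CPM with LPS and 17.8 CPM with vector. It rose 3.06-fold with LPS relative to vector (edgeR adjusted p = 3.12e-06, or 1.54-fold and 0.13 with curated transcripts only), and no call was made with arctigenin relative to LPS (adjusted p = 0.0914, or 0.0436 without the second library with arctigenin). The cell surface carrier Slc29a1 had 23.5 and 20.5 CPM with LPS and arctigenin, 20.2 and 17.0 CPM with LPS and 31.7 CPM with vector, a fall of 1.70-fold with LPS (edgeR adjusted p = 0.00149). Its libraries with arctigenin lay slightly above those with LPS, without a call (adjusted p = 0.153). The purine nucleobase carrier Slc43a3 was lower at each step, at 33.3 and 42.1 CPM with LPS and arctigenin, 61.2 and 62.1 CPM with LPS and 108 CPM with vector, and fell 1.63-fold with arctigenin (edgeR adjusted p = 0.000626) and 1.75-fold with LPS (adjusted p = 0.0004, or 0.185 with curated transcripts only). Slc17a9, which loads nucleotides into vesicles, was low at 2.34 and 3.48 CPM with LPS and arctigenin, 9.02 and 6.37 CPM with LPS and 10.4 CPM with vector, and fell 2.64-fold with arctigenin (edgeR adjusted p = 0.00195, or 0.194 with curated transcripts only).

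Of the 12 carriers of sugars and sugar phosphates, 5 fell and 1 rose with arctigenin relative to LPS, with a median log2 fold change of -0.42. These are 41.7% and 8.33%, against 22.0% and 22.8% of all genes tested. LPS raised 1 and lowered 3 relative to vector (8.33% and 25%, against 27.1% and 24.9% of all genes tested). The class summed to 224.4 and 225.2 CPM with LPS and arctigenin, 286.7 and 274.5 CPM with LPS, and 302.3 CPM with vector. Slc2a6, a member of the facilitated glucose transporter family, had 18.0 and 19.0 CPM with LPS and arctigenin, 47.4 and 49.8 CPM with LPS and 72.3 CPM with vector. No groups overlapped. It fell 2.63-fold with arctigenin (log2 fold change -1.40, SE 0.09, edgeR adjusted p = 4.12e-06) and 1.49-fold with LPS relative to vector (adjusted p = 0.000955). The glucose transporter Slc2a3 had 33.5 and 31.5 CPM with LPS and arctigenin, 30.1 and 26.1 CPM with LPS and 35.4 CPM with vector, with no call with arctigenin (edgeR adjusted p = 0.137, or 0.0479 with curated transcripts only) and a fall of 1.26-fold with LPS that was close to the threshold (adjusted p = 0.0465, or 0.0804 with curated transcripts only). Leaving out LPS replicate 1 or 2 ended the call of Slc2a3 (adjusted p = 0.0508 and 0.242).

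The single sugar carrier that LPS raised was Slc45a3, with 8.52 and 9.96 CPM with LPS and arctigenin, 22.0 and 20.2 CPM with LPS and 2.39 CPM with vector. The LPS libraries were highest and vector lowest, with no overlap. The rise was 8.81-fold (log2 fold change 3.14, SE 0.22, edgeR adjusted p = 1.96e-06) and the fall with arctigenin 2.28-fold (-1.19, SE 0.15, adjusted p = 0.000151). Slc37a2, which exchanges glucose 6-phosphate for phosphate in the endoplasmic reticulum, had 26.4 and 33.1 CPM with LPS and arctigenin, 42.3 and 40.0 CPM with LPS and 40.1 CPM with vector, and fell 1.38-fold with arctigenin (edgeR adjusted p = 0.00857, or 0.0745 with curated transcripts only and 0.0838 without LPS replicate 1). The myo-inositol carrier Slc5a3 was the 1 member of the class that rose with arctigenin. It had 48.5 and 46.3 CPM with LPS and arctigenin, 25.8 and 28.1 CPM with LPS and 31.0 CPM with vector, 1.76-fold higher with arctigenin than with LPS (edgeR adjusted p = 9.65e-05).

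**Figure D3:**
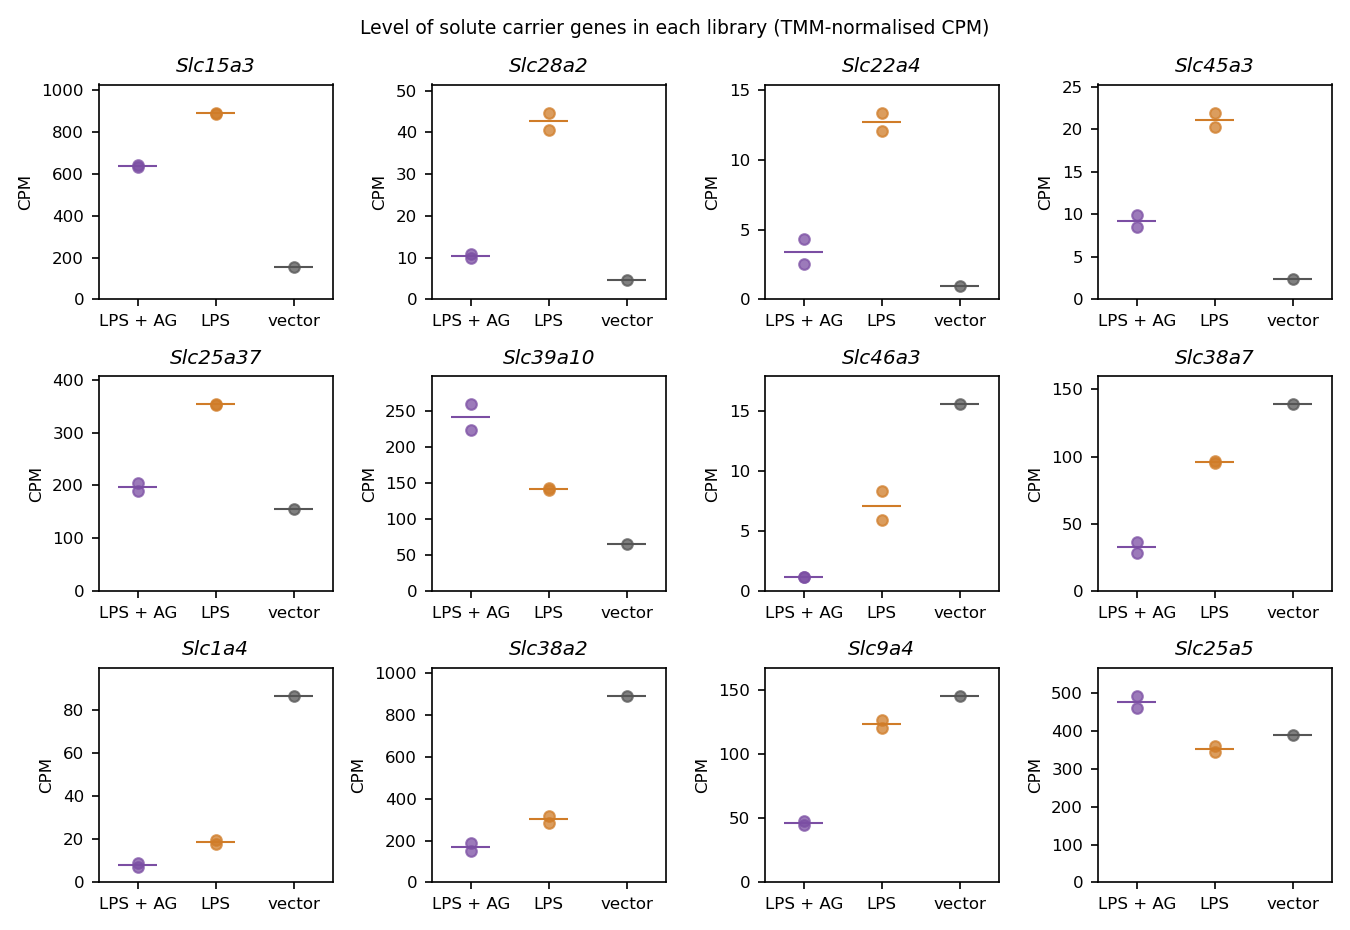
TMM-normalised CPM of 12 solute carrier genes in each library (points) with the group mean (horizontal line), for LPS with arctigenin (LPS + AG), LPS and vector. The vertical axis of each panel starts at 0. Slc15a3, Slc28a2, Slc22a4, Slc45a3 and Slc25a37 are highest in the LPS libraries, Slc46a3, Slc38a7, Slc1a4, Slc38a2 and Slc9a4 are highest in vector and lowest with arctigenin, and Slc39a10 and Slc25a5 are highest with arctigenin.

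Metal and heme carriers numbered 19. With LPS relative to vector 12 rose (63.2%, against 27.1% of all genes tested) and 4 fell (21.1%, against 24.9%). The median log2 fold change was 0.42. With arctigenin relative to LPS 9 fell (47.4%, against 22.0%) and 1 rose (5.26%, against 22.8%), with a median of -0.20. The class summed to 1815 and 1799 CPM with LPS and arctigenin, 2023 and 1965 CPM with LPS, and 1537 CPM with vector, so the libraries with arctigenin lay between. The copper importer Slc31a1 had 191 and 184 CPM with LPS and arctigenin, 214 and 203 CPM with LPS and 92.7 CPM with vector. It rose 2.25-fold with LPS (log2 fold change 1.17, SE 0.08, edgeR adjusted p = 1.46e-06), and with arctigenin it was not called (adjusted p = 0.0678). Its relative Slc31a2, found on endosomes and lysosomes, had 67.1 and 67.8 CPM with LPS and arctigenin, 122 and 112 CPM with LPS and 54.2 CPM with vector. The rise with LPS was 2.16-fold (edgeR adjusted p = 6.51e-06), and it fell 1.73-fold with arctigenin (adjusted p = 2.62e-05).

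Zinc is moved into the cytosol by the Slc39 family and out of it by the Slc30 family. Slc39a10, an importer, was the 1 metal carrier that rose with arctigenin. It had 259 and 223 CPM with LPS and arctigenin, 143 and 139 CPM with LPS and 65.1 CPM with vector. The groups did not overlap and each stood above the one after it. It rose 1.71-fold with arctigenin relative to LPS (log2 fold change 0.77, SE 0.08, edgeR adjusted p = 4.46e-05) and 2.17-fold with LPS relative to vector (adjusted p = 1.27e-05). Slc39a14, which imports zinc and iron, had 196 and 169 CPM with LPS and arctigenin, 230.1 and 208 CPM with LPS and 161 CPM with vector. It rose 1.36-fold with LPS (edgeR adjusted p = 0.00532) and fell 1.20-fold with arctigenin (adjusted p = 0.0259, or 0.16 with curated transcripts only, 0.22 without LPS replicate 1 and 0.102 without the second library with arctigenin). With the length and GC correction neither call of Slc39a14 was made (edgeR adjusted p = 0.0665 and 0.191), and with curated transcripts only its rise with LPS was 2.66-fold. The zinc exporter Slc30a1, a target of the zinc sensor MTF1, had 36.6 and 41.8 CPM with LPS and arctigenin, 53.7 and 48.9 CPM with LPS and 37.6 CPM with vector, and followed the same course, 1.37-fold up with LPS and 1.31-fold down with arctigenin (edgeR adjusted p = 0.0106 and 0.0094, or 0.0636 and 0.0682 with curated transcripts only, and 0.081 and 0.11 without LPS replicate 1). Slc39a2, at a lower level, had 5.48 and 6.06 CPM with LPS and arctigenin, 12.6 and 13.9 CPM with LPS and 9.16 CPM with vector and fell 2.29-fold with arctigenin (edgeR adjusted p = 0.000324). Slc48a1, which carries heme out of lysosomes, rose 1.64-fold with LPS (edgeR adjusted p = 0.00268) and was not called with arctigenin (adjusted p = 0.866).

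**Figure D4:**
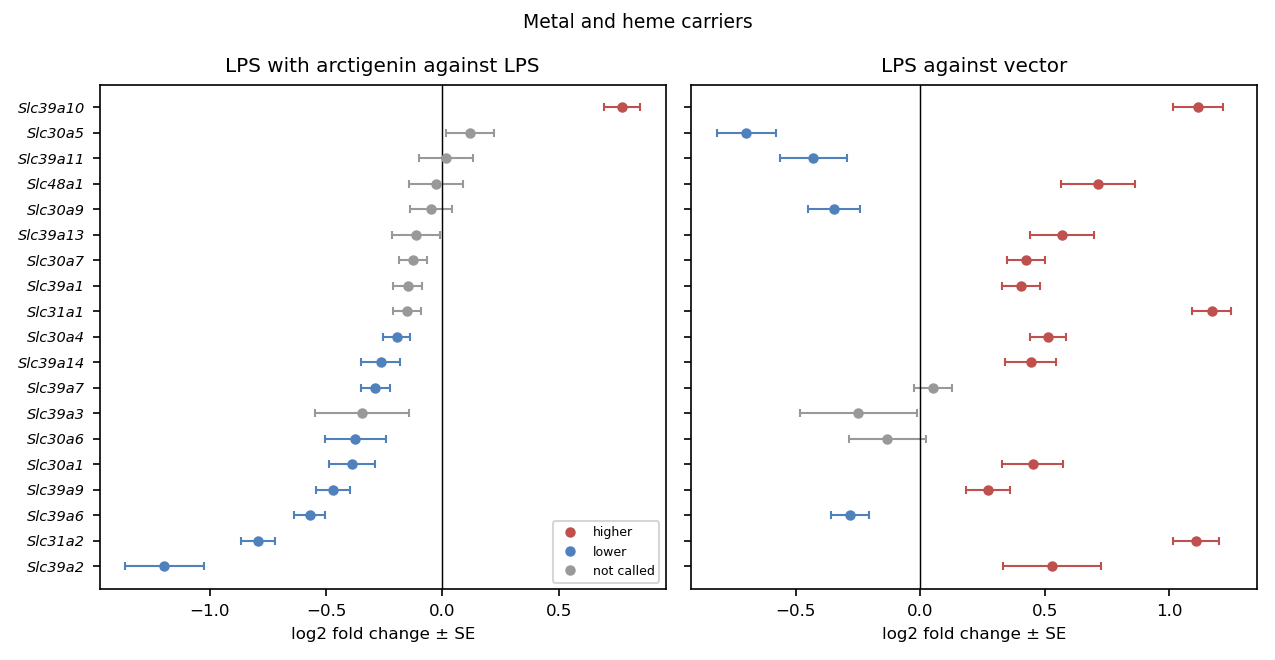
Log2 fold change with its standard error (horizontal bars) for the 19 metal and heme carriers, for LPS with arctigenin against LPS (left panel) and LPS against vector (right panel). Red points were called higher, blue points lower and grey points were not called. Slc39a10 at 0.77 is the called rise of the left panel and Slc39a2 at -1.20 its lowest point, while 12 of the 19 are called rises in the right panel.

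Among 24 carriers of ions, phosphate and protons, LPS raised 12 and lowered 4 relative to vector (median log2 fold change 0.43). These are 50% and 16.7%, against 27.1% and 24.9% of all genes tested. With arctigenin relative to LPS 12 fell and 0 rose (median -0.26). The share that fell was 50%, against 22.0% of all genes tested, of which 22.8% rose. The class summed to 1175 and 1206 CPM with LPS and arctigenin, 1598 and 1528 CPM with LPS, and 1093 CPM with vector. With curated transcripts only, 5 members of the class were called higher with LPS, when 17.3% of all genes tested were called higher. In the same setting 3 members were called lower with arctigenin, when 10.6% of all genes tested were called lower. How many of the class were tested in that setting was not recorded. Without LPS replicate 1, fewer of the class were called lower with arctigenin, as were fewer of all genes tested. The potassium chloride cotransporter Slc12a7 had 61.4 and 63.1 CPM with LPS and arctigenin, 75.2 and 66.0 CPM with LPS and 28.5 CPM with vector, and rose 2.48-fold with LPS (edgeR adjusted p = 8.29e-06) with no call for arctigenin (adjusted p = 0.115). The mitochondrial sodium calcium exchanger Slc8b1 had 67.2 and 74.0 CPM with LPS and arctigenin, 90.2 and 100.2 CPM with LPS and 39.8 CPM with vector. It rose 2.39-fold with LPS (edgeR adjusted p = 7.56e-06, or 0.0926 with curated transcripts only) and fell 1.35-fold with arctigenin (adjusted p = 0.00212). The sodium bicarbonate cotransporter Slc4a7 and the sodium calcium exchanger Slc8a1 rose 2.08-fold and 2.09-fold with LPS.

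Falls with arctigenin were larger in other ion carriers. Slc9a4, a sodium proton exchanger, had 44.5 and 48.1 CPM with LPS and arctigenin, 127 and 120.5 CPM with LPS and 146 CPM with vector. The libraries with arctigenin were set well below all others. It fell 2.67-fold (log2 fold change -1.42, SE 0.07, edgeR adjusted p = 1.28e-06), and LPS relative to vector gave a fall of 1.18-fold (adjusted p = 0.0346). The chloride bicarbonate exchanger Slc4a2 had 22.7 and 19.6 CPM with LPS and arctigenin, 51.1 and 45.7 CPM with LPS and 47.8 CPM with vector, and fell 2.29-fold with arctigenin (edgeR adjusted p = 2.11e-05). LPS and vector were not told apart for this gene (adjusted p = 0.922). Slc26a11 was near the bottom of the measured range, at 1.49 and 1.00 CPM with LPS and arctigenin, 5.83 and 3.36 CPM with LPS and 6.89 CPM with vector, and its 3.68-fold fall with arctigenin (edgeR adjusted p = 0.00204) was lost with curated transcripts only (2.29-fold, adjusted p = 0.527). The endosomal sodium proton exchanger Slc9a9 had 1.12 and 0.738 CPM with LPS and arctigenin, 1.96 and 2.31 CPM with LPS and 9.04 CPM with vector, a 4.23-fold fall with LPS (edgeR adjusted p = 0.000351). The sodium potassium chloride cotransporter Slc12a2 fell 1.72-fold with LPS (edgeR adjusted p = 0.00564, or 0.0503 without LPS replicate 2). The phosphate importer Slc20a1 had 124 and 132 CPM with LPS and arctigenin, 151 and 151 CPM with LPS and 143 CPM with vector, and fell 1.18-fold with arctigenin (edgeR adjusted p = 0.0113, or 0.0847 and 0.0722 without LPS replicate 1 or 2).

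Mitochondrial carriers, here the Slc25 family only, were the most numerous class, with 34 members. The mitochondrial exchanger Slc8b1 was classed with the ion carriers and is not among them. With arctigenin relative to LPS 8 fell (23.5%, against 22.0% of all genes tested) and 6 rose (17.6%, against 22.8%). The median log2 fold change was -0.11. LPS relative to vector raised 5 (14.7%, against 27.1% of all genes tested) and lowered 8 (23.5%, against 24.9%), with a median of -0.14. The shares that fell were thus near those of all genes in both comparisons. The class summed to 2132 and 2107 CPM with LPS and arctigenin, 2151 and 2103 CPM with LPS, and 2066 CPM with vector. The 6 that rose with arctigenin were Slc25a3, Slc25a4, Slc25a5, Slc25a22, Slc25a39 and Slc25a45, and without LPS replicate 2, when 15.8% of all genes tested rose, the class had 3 called rises. The call of Slc25a45 was lost without LPS replicate 1 or 2 (edgeR adjusted p = 0.0975 and 0.0542), and with curated transcripts only its rise was 2.37-fold (adjusted p = 0.0138). Slc25a4 and Slc25a5 exchange ADP for ATP across the inner membrane, and Slc25a3 brings in the phosphate that ATP synthase uses.

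Slc25a5 had 494 and 459.8 CPM with LPS and arctigenin, 359.5 and 346 CPM with LPS and 389 CPM with vector. It rose 1.35-fold with arctigenin relative to LPS (log2 fold change 0.44, SE 0.06, edgeR adjusted p = 0.00038) and was not called in LPS relative to vector (adjusted p = 0.143). In Slc25a3 and Slc25a4 the LPS libraries were the low ones, and the libraries with arctigenin lay near vector. Slc25a3 had 244 and 228 CPM with LPS and arctigenin, 175 and 168 CPM with LPS and 235 CPM with vector, a rise of 1.37-fold with arctigenin (edgeR adjusted p = 0.000276) and a fall of 1.37-fold with LPS (adjusted p = 0.0006). Slc25a4 had 132 and 131 CPM with LPS and arctigenin, 96.9 and 104 CPM with LPS and 132 CPM with vector, a rise of 1.31-fold with arctigenin and a fall of 1.31-fold with LPS (edgeR adjusted p = 0.000969 and 0.00199). LPS with arctigenin relative to vector gave adjusted p = 0.982 for Slc25a3 and 0.966 for Slc25a4. The glutamate carrier Slc25a22 rose in both comparisons, 1.36-fold with arctigenin (edgeR adjusted p = 0.00838, or 0.16 with curated transcripts only and 0.0986 without LPS replicate 2) and 1.92-fold with LPS (adjusted p = 0.000419).

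Mitoferrin-1, Slc25a37, which brings iron into mitochondria, had the largest rise of the class with LPS among called members. It had 189 and 205 CPM with LPS and arctigenin, 353 and 354 CPM with LPS and 156 CPM with vector. The LPS libraries stood above the rest and those with arctigenin lay closer to vector. It rose 2.27-fold with LPS (log2 fold change 1.18, SE 0.08, edgeR adjusted p = 1.5e-06) and fell 1.79-fold with arctigenin (-0.84, SE 0.06, adjusted p = 6.9e-06). On curated transcripts alone the rise of Slc25a37 with LPS was 1.29-fold and not called (edgeR adjusted p = 0.127), and its fall with arctigenin was 2.78-fold (adjusted p = 0.00489). The pyrimidine nucleotide carrier Slc25a33, whose promoter is printed above, fell at each step. It had 5.16 and 5.91 CPM with LPS and arctigenin, 11.4 and 10.9 CPM with LPS and 26.3 CPM with vector, with falls of 2.02-fold with arctigenin (edgeR adjusted p = 0.000549) and 2.35-fold with LPS (adjusted p = 0.000131). The ATP-magnesium phosphate carrier Slc25a24 rose 1.51-fold with LPS and fell 1.27-fold with arctigenin. Slc25a35, the member nearest the count minimum, had 1.38 and 1.48 CPM with LPS and arctigenin, 2.70 and 3.21 CPM with LPS and 1.43 CPM with vector, and its fall of 2.06-fold with arctigenin (edgeR adjusted p = 0.0336) was not called with curated transcripts only (adjusted p = 0.311), nor with any 1 of the LPS libraries or libraries with arctigenin left out (0.0658 to 0.197).

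Carriers of organic acids, organic cations and lipids (17 members) had 4 falls and 1 rise with arctigenin relative to LPS. The 23.5% that fell were close to the 22.0% of all genes tested, and 5.88% rose, against 22.8%. With LPS relative to vector there were 5 rises (29.4%, against 27.1% of all genes tested) and 3 falls (17.6%, against 24.9%). The 1 rise with arctigenin was Slc16a3, the main exporter of lactate in glycolytic cells. It had 136 and 128 CPM with LPS and arctigenin, 92.4 and 80.2 CPM with LPS and 85.5 CPM with vector. Vector lay within the range of the LPS libraries, and both libraries with arctigenin lay above. It rose 1.53-fold with arctigenin (log2 fold change 0.61, SE 0.08, edgeR adjusted p = 0.000244), a call lost with curated transcripts only (adjusted p = 0.495). The related Slc16a1, which carries lactate and pyruvate in either direction, had 229 and 184 CPM with LPS and arctigenin, 178 and 176 CPM with LPS and 96.6 CPM with vector. It rose 1.83-fold with LPS (edgeR adjusted p = 0.000376) and was not called with arctigenin relative to LPS (adjusted p = 0.087, or 0.000564 without the second library with arctigenin). Slc16a10 carries aromatic amino acids but was classed here with its family, so it is not among the 24 amino acid and peptide carriers. It had 81.9 and 109 CPM with LPS and arctigenin, 104 and 97.4 CPM with LPS and 261 CPM with vector. Slc16a10 fell 2.59-fold with LPS (edgeR adjusted p = 0.000131) with no call for arctigenin (adjusted p = 0.654). The monocarboxylate carrier Slc16a7 fell 2.51-fold with LPS (edgeR adjusted p = 0.000728, or 0.569 with curated transcripts only).

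The largest fitted rise of any member with LPS was that of Slc22a4, a carrier of ergothioneine and organic cations. It had 4.31 and 2.53 CPM with LPS and arctigenin, 13.4 and 12.1 CPM with LPS and 0.996 CPM with vector. It rose 12.7-fold with LPS (log2 fold change 3.67, SE 0.38, edgeR adjusted p = 2.95e-05) and fell 3.71-fold with arctigenin (-1.89, SE 0.25, adjusted p = 0.000253). On curated transcripts alone neither call was made (edgeR adjusted p = 0.522 and 0.902), and the log2 fold changes were 2.47 (SE 2.63) with LPS and 0.37 (SE 1.76) with arctigenin. Slc22a4 has close paralogs, Slc22a5 and Slc22a21, with which reads may have been shared. Slc16a9 had 4.90 and 3.37 CPM with LPS and arctigenin, 2.30 and 3.31 CPM with LPS and 0.319 CPM with vector, a rise of 8.66-fold with LPS over a low vector level (edgeR adjusted p = 0.000977). Slc27a1, which aids uptake of long-chain fatty acids, had 150.2 and 163 CPM with LPS and arctigenin, 257 and 245 CPM with LPS and 275 CPM with vector, and fell 1.60-fold with arctigenin (edgeR adjusted p = 3.14e-05). The carnitine importer Slc22a5 fell 1.82-fold with arctigenin (edgeR adjusted p = 0.0214, or 1.14-fold and 0.893 with curated transcripts only, 0.202 without LPS replicate 2 and 0.0924 without the first library with arctigenin).

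Among 9 carriers of vitamins, choline and cofactors, 4 fell and 1 rose with arctigenin relative to LPS (22.0% and 22.8% of all genes tested). LPS raised 3 and lowered 2 relative to vector (27.1% and 24.9% of all genes tested). The largest fall of any member with arctigenin was that of Slc46a3, a lysosomal carrier (build mm9, chromosome 5, 148690013 to 148706391, minus strand). It had 1.17 and 1.16 CPM with LPS and arctigenin, 8.29 and 5.92 CPM with LPS and 15.6 CPM with vector. Each group lay below the next without overlap, and the level with arctigenin was low. The fall was 6.07-fold relative to LPS (log2 fold change -2.60, SE 0.27, edgeR adjusted p = 4.46e-05, or 9.94-fold and 0.0514 with curated transcripts only), and LPS relative to vector gave 2.19-fold (-1.13, SE 0.24, adjusted p = 0.00289, or 0.32 with curated transcripts only). The reduced folate carrier Slc19a1 was the 1 that rose. It had 31.3 and 30.8 CPM with LPS and arctigenin, 20.6 and 20.1 CPM with LPS and 31.0 CPM with vector, so the LPS libraries were low and the others alike in level. The rise with arctigenin was 1.52-fold (edgeR adjusted p = 0.000746, or 0.209 with curated transcripts only) and the fall with LPS 1.52-fold (adjusted p = 0.00153). The ascorbate importer Slc23a2 had 175 and 183 CPM with LPS and arctigenin, 217 and 215 CPM with LPS and 134 CPM with vector, rose 1.62-fold with LPS and fell 1.21-fold with arctigenin (edgeR adjusted p = 3.34e-05 and 0.00419). The multivitamin carrier Slc5a6 fell 1.60-fold with arctigenin (edgeR adjusted p = 0.0411, or 0.923 with curated transcripts only), and leaving out LPS replicate 1, LPS replicate 2 or the second library with arctigenin ended that call too (0.175, 0.121 and 0.146).

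Carriers of nucleotide sugars and related Golgi carriers numbered 20. With arctigenin relative to LPS 9 fell (45%, against 22.0% of all genes tested) and 2 rose (10%, against 22.8%). LPS raised 3 (15%, against 27.1%) and lowered 4 (20%, against 24.9%) relative to vector. Slc35b4, which brings UDP-xylose and UDP-N-acetylglucosamine into the Golgi, had 17.2 and 20.5 CPM with LPS and arctigenin, 36.7 and 37.3 CPM with LPS and 49.9 CPM with vector. It fell 1.96-fold with arctigenin (edgeR adjusted p = 7.83e-05). Slc35c2 had 40.0 and 39.9 CPM with LPS and arctigenin, 68.5 and 66.0 CPM with LPS and 72.7 CPM with vector, a fall of 1.68-fold (edgeR adjusted p = 5.39e-05). The 2 that rose were Slc35a4 and Slc35a3, of which Slc35a3 is a Golgi carrier of UDP-N-acetylglucosamine. Slc35a4 had 63.7 and 52.6 CPM with LPS and arctigenin, 40.5 and 36.5 CPM with LPS and 55.2 CPM with vector, and rose 1.51-fold with arctigenin (edgeR adjusted p = 0.00162). Slc35a3 rose 1.26-fold (adjusted p = 0.00333). With LPS relative to vector the largest calls of the class were a fall of 1.72-fold in Slc35e4 and a rise of 1.62-fold in Slc35f6 (edgeR adjusted p = 0.000225 and 0.000225). The 3 members that carry an Slc symbol without being transporters were Slc4a1ap, Slc7a6os and Slc9a3r1. Slc9a3r1, a scaffold that tethers membrane proteins to the cytoskeleton, had 50.7 and 44.6 CPM with LPS and arctigenin, 41.6 and 47.9 CPM with LPS and 13.7 CPM with vector and rose 3.28-fold with LPS (edgeR adjusted p = 6.72e-06).

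Relative to vector, LPS with arctigenin raised 42 of the 167 members and lowered 61. These are 25.1% and 36.5%, against 30.4% and 25.7% of all genes tested (56.2% in either direction). Falls of at least 2-fold were called for 27 members (10.2% of all genes tested) and rises of at least 2-fold for 15 (9.94% of all genes tested). Amino acid carriers had 14 falls and 4 rises of 24. The largest falls were in Slc46a3 at 13.3-fold (edgeR adjusted p = 2.57e-06), Slc1a4 at 10.6-fold (adjusted p = 3.99e-08) and Slc9a9 at 9.69-fold (adjusted p = 2.42e-05). Slc38a2 fell 5.31-fold (edgeR adjusted p = 1.15e-06). Slc15a3 remained 4.15-fold higher than in vector (edgeR adjusted p = 3.22e-08), and Slc39a10 was 3.70-fold higher.

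Transporters that belong to solute carrier families or share their fold but have other names were listed separately. Of 36 symbols looked up for them, some of them alternative names of the same gene, 31 were found and 28 were tested. With arctigenin relative to LPS 12 of the 28 fell and 2 rose, with a median log2 fold change of -0.26. Of all genes tested, 22.0% fell and 22.8% rose. LPS relative to vector raised 5 of the 28 and lowered 7, when 27.1% of all genes tested rose and 24.9% fell. The lysosomal carrier Dirc2 had 3.89 and 4.43 CPM with LPS and arctigenin, 16.2 and 14.9 CPM with LPS and 25.2 CPM with vector, a fall of 3.74-fold with arctigenin (edgeR adjusted p = 1.18e-05). Ctns, the lysosomal exporter of cystine, had 18.4 and 18.0 CPM with LPS and arctigenin, 29.9 and 27.7 CPM with LPS and 47.9 CPM with vector, and fell 1.58-fold with arctigenin (edgeR adjusted p = 0.000528). The lysosomal carrier of cationic amino acids Pqlc2 fell 2.08-fold (edgeR adjusted p = 0.00124). The 2 that rose were Ucp2 and Mtch1, both of mitochondria. Ucp2, of the same family as the Slc25 carriers, had 498 and 483 CPM with LPS and arctigenin, 328 and 336 CPM with LPS and 427 CPM with vector, a rise of 1.48-fold (edgeR adjusted p = 4.82e-05).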

How the data were processed

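The submitters' processing notes name Trimmomatic, HISAT2, Cufflinks, HTSeq, DESeq and build mm9, without versions or order. The authors deposited 1 table of estimated counts (expected counts that need not be whole) for 75959 RefSeq transcripts, 29883 curated and 46076 predicted, in 5 libraries. For the tool that gave decimals, the sources used here name none. They do not state the use of strand either, so overlapping or antisense genes may share reads.

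Transcript values under one gene symbol were added and then rounded to whole numbers. All 5 libraries entered 1 fit in edgeR 4.0.16 (R 4.3.3) with group as the only term (filterByExpr at 10 counts and 15 in total, TMM, estimateDisp, glmQLFit with the robust option, glmQLFTest, Benjamini-Hochberg). The filter kept 11575 genes and left out 10303. Residual degrees of freedom numbered 2, with 7.13% as biological coefficient of variation. The spread of the single vector library was taken from the other groups. Standard errors are the log2 fold change divided by the square root of F. Replicate libraries differed beyond sampling noise (chi-square per degree of freedom 8.55 for LPS with arctigenin and 5.24 for LPS).

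Genes named are, per comparison, the 10 largest called rises and falls without overlap at a mean log2 CPM of at least 2, the 2 largest called changes in each class, and a list of key carriers, of which Slc39a8 was below the count minimum. Others described were chosen after their values were seen. Some carriers that the rule names are not reported here. The members, classes and lists were chosen with earlier results of these data known. Alternatives were DESeq2 1.42.0, limma-voom 3.58.1, DESeq2-type size factors, no filter, curated transcripts only and a correction for length and GC content (known for 162 of the 167 members, or 97%). Further ones were the 2 groups' libraries alone, a replicate block, and each LPS library or library with arctigenin left out in turn. The single vector library was never left out, so dependence of the comparisons with vector on it could not be examined.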

Additional observations from a re-analysis of the deposited data

How the results depend on the processing

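Of 86 results for named genes, 64 kept their direction and side of the threshold under every alternative other than curated transcripts only, and 46 under that one too. With curated transcripts only, 29 members fell with arctigenin relative to LPS, when 10.6% of all genes tested fell. Of the 29, 8 were amino acid carriers and 3 ion carriers. The same setting gave 30 members higher and 18 lower in LPS relative to vector, when 17.3% and 12% of all genes tested were. Among them 5 ion carriers were higher and 4 amino acid carriers lower. In LPS with arctigenin relative to vector, the setting gave 22 higher and 30 lower, when 20.5% and 14.4% of all genes tested were. That setting leaves out the predicted transcripts. With the length and GC correction, 21 members rose with arctigenin relative to LPS and 7 ion carriers fell, when 24.2% of all genes tested rose and 19.6% fell. Leaving out 1 library at a time gave 7 to 10 ion carriers lower with arctigenin (7 without LPS replicate 1, when 13.4% of all genes tested fell) and 3 to 7 mitochondrial carriers higher (3 without LPS replicate 2, when 15.8% of all genes tested rose). The cause of these shifts was not tested.

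Signs turned in genes not called in the comparison, apart from Slc22a4. In LPS relative to vector, Slc16a3 had a log2 fold change of -0.196 and Slc37a2 of -0.106 with the length and GC correction, and Slc16a3 ranged between -0.090 and 0.111 with 1 library left out. With arctigenin relative to LPS, curated transcripts only gave 0.372 for Slc22a4 and 0.156 for Slc29a3. The length and GC correction gave 0.025 for Slc3a2 and 0.001 for Slc7a5, and leaving out 1 library gave -0.153 to 0.034 for Slc3a2 and -0.178 to 0.007 for Slc7a5.

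The labels do not say whether libraries with the same replicate number belonged together. The difference between replicates 1 and 2 was compared between the LPS libraries and those with arctigenin (correlation -0.00842 over 11575 genes). Each group gives only 1 such difference, so this value cannot settle the question. With the replicate block, 17 members rose and 72 fell with arctigenin relative to LPS, when 24.4% of all genes tested rose and 23.8% fell, and Slc16a1 became a called rise (edgeR adjusted p = 0.0471). DESeq2 did not call Slc2a3 in LPS relative to vector (adjusted p = 0.168), nor Slc5a6, Slc22a5, Slc25a35 and Slc25a45 with arctigenin relative to LPS (0.208, 0.0542, 0.168 and 0.0975). The length and GC correction ended the calls of Slc30a1 with LPS (0.0859) and of Slc5a6, Slc20a1 and Slc25a35 with arctigenin (0.0716, 0.064 and 0.0509), and made one of Slc2a3 (0.0397). Members near the count minimum had few counts per library, which limits what could be called among them.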
